A study of Rattus norvegicus with 16 samples.

Results

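The Hox genes are the homeobox genes of the HoxA, HoxB, HoxC and HoxD clusters. They were taken here as every non-control probe whose gene name on the array is Hox, a cluster letter and a paralogue number. This gave 31 probes for 29 genes, out of 30367 probes for 26207 genes and unnamed targets. RefSeq lists 39 such genes for the rat, and those with no member probe were not analysed here. The samples were cell populations sorted by flow cytometry from cultures of rat olfactory mucosa, all from male Fischer rats, and hybridised to 16 one-colour Agilent arrays. The populations were CD90, p75 and TRKA cells, grown under one protocol, and TRKA cells conditioned with TGF-alpha (labelled TRKA-TGF), with 4 biological replicates each. A sort purity of 93 to 97% was stated for all of them, and the age of the animals was not stated. The labels do not say whether replicates came from separate animals or cultures, so each p-value measures the spread between these samples only.

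Hox genes encode homeodomain transcription factors, and their order along each cluster follows the order in which they are switched on from head to tail. Low paralogue numbers mark the hindbrain, middle numbers the neck and trunk, and high numbers the lumbar, sacral and limb regions. The forebrain, the olfactory placode and the neural crest of the upper face develop without Hox expression, and several Hox genes are also used again in blood cells and in adult skin. The 29 genes are described by cluster and by paralogue number, with numbers 1 to 3 called anterior, 4 to 8 central and 9 to 13 posterior.

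The arrays carried a probe of 60 bases for most members, and the sequences of the probes on which the results turn are as follows. For Hoxb4, the gene with the largest difference, only the first 30 bases are given. Hoxa6 and Hoxb8 are shown because their probes shared 17 bases, the longest run between any pair among 465 pairs of member probes, where the median was 6. That run is in capitals, lies in the conserved homeobox, and was found in 2 of 30367 probes on the array, both strands being searched. The last pairs are paralogues of one number of which only one was detected, with the longest run each pair shared (8 and 7 bases) in capitals.
Hoxb4, first 30 bases: agatggatccatgtttcatctttaatcatg
Hoxa6: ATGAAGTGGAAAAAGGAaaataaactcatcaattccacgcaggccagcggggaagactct
Hoxb8: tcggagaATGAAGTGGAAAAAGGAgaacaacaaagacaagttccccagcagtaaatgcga
Hoxc12: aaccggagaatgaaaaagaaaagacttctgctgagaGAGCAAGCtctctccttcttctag
Hoxd12: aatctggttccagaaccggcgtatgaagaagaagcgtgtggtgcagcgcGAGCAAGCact
Hoxc13: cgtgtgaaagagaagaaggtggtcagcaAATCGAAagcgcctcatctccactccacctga
Hoxd13: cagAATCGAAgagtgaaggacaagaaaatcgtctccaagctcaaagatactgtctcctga

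The populations stood apart in marker genes, and the arrays differed in overall brightness. The median processed signal was 22.8 to 39.2 on the TRKA arrays and 133 to 219 on the other 12. Levels are therefore given as log2 of the processed signal minus log2 of that array's 75th percentile, so that 0 is a signal equal to the percentile. Ngfr, the gene of p75, was detected on all 4 p75 arrays and on no TRKA array, and Thy1, the gene of CD90, was highest in CD90. Ngfr was also detected on all 4 TRKA-TGF arrays, at a mean of -0.37 against 3.16 in p75. All 10 macrophage markers were detected on every TRKA array. Their summed level, in multiples of the 75th percentile, was 508 to 673 in TRKA, 198 to 201 in TRKA-TGF, 15.2 to 30.3 in CD90 and 5.82 to 10.3 in p75. Among them Cd163 was not detected on any TRKA-TGF array. The summed level of 10 glial markers was 106 to 115 in p75 and at most 5.51 in the other populations. That of 10 fibroblast markers was 510 to 586 in CD90, 211 to 223 in p75, 131 to 165 in TRKA and 7.65 to 15.8 in TRKA-TGF. Summed levels of epithelial markers were at most 1.98, and those of olfactory neuron markers at most 8.18, in all populations. The p75 and TRKA arrays lay on one slide, and the TRKA-TGF and CD90 arrays on another. Slide and population can therefore be told apart only in TRKA versus p75 and in TRKA-TGF versus CD90. Each population lay on 1 row of its slide, so slide row and population cannot be told apart in these comparisons.

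Of the 29 Hox genes, 14 were at background on every array and 6 were detected on every array. A probe counted as detected where its signal was well above background, a flag set by the scanner software. Those detected on none of the 16 arrays included Hoxa2, Hoxa3, Hoxa9, Hoxa11, Hoxb2, Hoxb3, Hoxb13, Hoxc6, Hoxc10, Hoxc12, Hoxd3, Hoxd9 and Hoxd13. The RefSeq name of the probe labelled Hoxa9 is Hoxa7. The 6 genes detected on all 16 arrays were Hoxb1, Hoxb6, Hoxc5, Hoxc13, Hoxd4 and Hoxd12. The other 9 were detected on some arrays. The p75 arrays detected between 7 and 9 Hox genes (median 8.5), the CD90 arrays between 7 and 11 (median 9), the TRKA arrays between 8 and 11 (median 9.5) and the TRKA-TGF arrays between 7 and 10 (median 9). These ranges overlap in every pair of populations. They correspond to 24.1 to 37.9% of the Hox genes, whereas each array detected 54.6 to 72.9% of all genes.

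**Figure D1:**
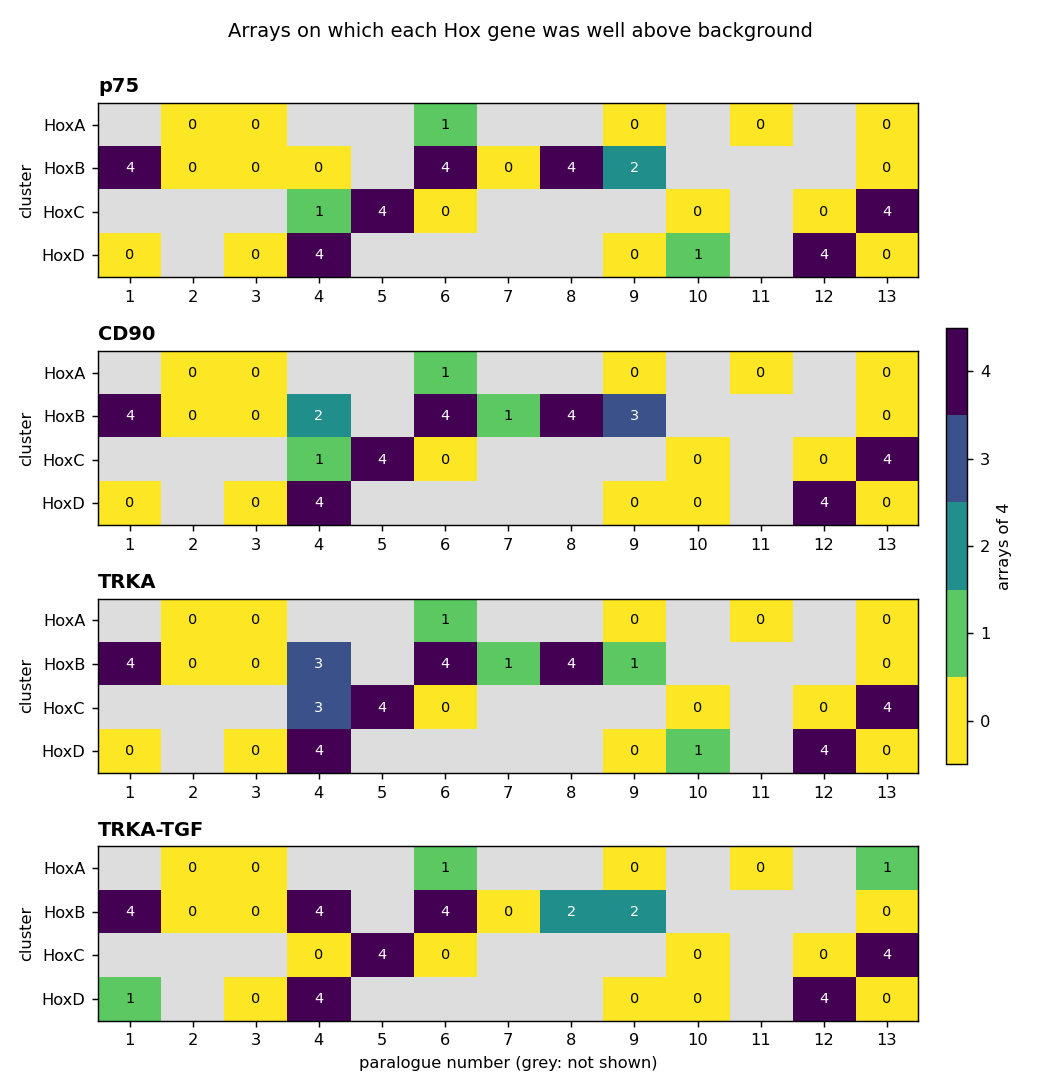
Number of arrays, of 4 in each population, on which each Hox gene was well above background, by cluster (rows) and paralogue number (columns), with grey for positions not shown. A gene with 2 probes takes the probe detected on more arrays, and the Hoxa9 position holds a probe that RefSeq names Hoxa7. The same 6 genes are at 4 in all panels, while Hoxb4 goes from 0 in p75 to 4 in TRKA-TGF.

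Detection differed between clusters and along them. In HoxA 5 of 7 genes were never detected and none reached 2 arrays in any population. HoxB had 3 of 9 never detected, HoxC 3 of 6 and HoxD 3 of 7, and each of these clusters had 2 genes detected on all 16 arrays. Along the clusters, 6 of 8 anterior genes and 7 of 12 posterior genes were never detected, against 1 of 9 central genes, Hoxc6. With the probe labelled Hoxa9 counted as Hoxa7, its RefSeq name, the numbers were 6 of 11 posterior and 2 of 10 central genes. The detected genes were not contiguous: Hoxb1 was detected throughout while Hoxb2 and Hoxb3, the next genes of its cluster, were not detected anywhere. Hoxd12 was likewise detected on all arrays, and neither Hoxd13 nor Hoxd9 on any. A probe at background gives only a bound on its transcript, and 1 or 2 probes represent each gene.

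The genes detected on a few arrays only did not mark a population. Hoxa6, a central gene, was detected on 1 array of each population, with its highest level at -2.55 in TRKA-TGF replicate 1 and the 3 other TRKA-TGF arrays at -7.23 or below. Hoxb7, a trunk gene, was detected on CD90 replicate 1 and TRKA replicate 4. Hoxd10, which patterns lumbar motor neurons and the limb, was detected on p75 replicate 4 and TRKA replicate 4. Hoxa13 and Hoxd1 were each detected on 1 TRKA-TGF array, replicate 3 and replicate 1 respectively. Hoxa13, which acts in the digits and the urogenital tract, read -3.17 there and -7.05 or lower on the 3 other TRKA-TGF arrays.

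Only 11 of the 29 genes had a probe detected on at least 4 arrays and entered the test, together with 20571 genes in all. The test was limma over the 16 arrays with Benjamini-Hochberg adjustment over all genes, and an adjusted p under 0.05 made a call. No Hox gene was called in CD90 versus p75, where 7.25% of all genes were, and 0 of the 11 had an unadjusted p under 0.05 in limma. TRKA versus p75 called 2 of 11, Hoxb4 and Hoxb8, both higher in TRKA, against 35.7% of all genes. TRKA-TGF versus p75 called 1 of 11, Hoxb4, higher in TRKA-TGF, against 15.1% of all genes. TRKA versus CD90 called 3 of 11, Hoxb4 and Hoxb8 higher and Hoxd4 lower in TRKA, against 34.9%. TRKA-TGF versus CD90 called only Hoxb4, higher in TRKA-TGF, against 14.9%. TRKA-TGF versus TRKA called Hoxd4, higher, and Hoxb8, lower in TRKA-TGF, against 26.4% of all genes. As a share of the 11 tested, the calls made up 0, 18.2, 9.09, 27.3, 9.09 and 18.2% in these comparisons, in the order given. Each was below the share among all genes, but 1 gene alone is 9.09% of the 11, and these gaps were not tested. After quantile normalisation 7 of the 11 Hox genes were called in TRKA versus p75, where 8603 of the 20571 genes were. In TRKA versus CD90 it was also 7 of the 11, against 8541 of all genes. Under that setting the Hox share was above the share among all genes in both, and these gaps were not tested either. The comparisons share populations and an estimate of spread over the 16 arrays, and are not independent of each other.

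The median difference of the 11 genes was 0.11 in CD90 versus p75, against 0.05 for all genes tested. It was 0.75 in TRKA versus p75 (all genes -0.01) and 0.46 in TRKA-TGF versus p75 (all genes 0.14). Against CD90 it was 0.39 for TRKA (all genes -0.09) and 0.07 for TRKA-TGF (all genes 0.15), and in TRKA-TGF versus TRKA it was -0.26 (all genes 0.19). Readings at background also tended to be higher in TRKA on this scale. Hoxb13, detected on no array, averaged -8.24 in p75, -8.37 in CD90, -7.68 in TRKA and -7.96 in TRKA-TGF. Hoxd3, also detected on none, averaged -7.77 in p75 and -7.78 in TRKA. The part of this shift in the medians of the Hox genes was not tested. The scaling moves these medians for the dim TRKA arrays. In TRKA versus p75 the median of all genes was 0.24 after quantile normalisation and -0.90 with the 75th percentile taken over probes detected on all 16 arrays. In TRKA-TGF versus TRKA it was -0.13 and 0.96 under the same settings. The share of calls that were higher moved from 52.7% to 20.7% in TRKA versus p75 and from 52.3% to 18.7% in TRKA versus CD90 under the latter setting. In TRKA-TGF versus TRKA it moved from 51.1% to 82.9% under that setting and to 39.9% after quantile normalisation.

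**Figure D2:**
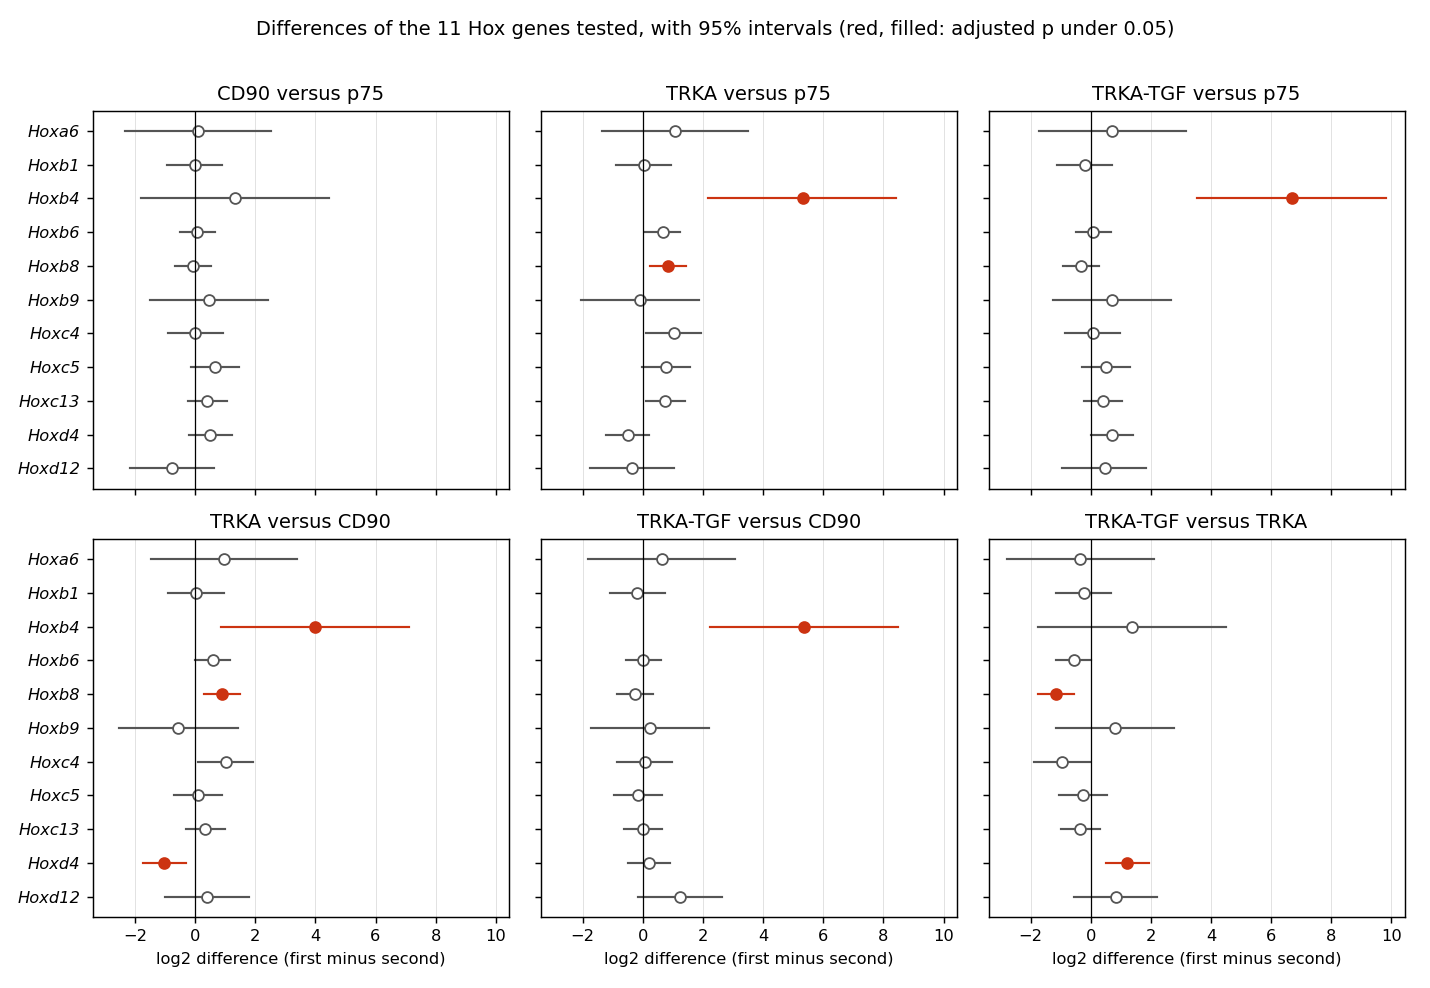
Difference in log2 level (horizontal axis) of the 11 Hox genes tested (vertical axis) in each of the 6 comparisons, as the first population minus the second, with 95% intervals from limma over 16 arrays; filled red points are called at an adjusted p under 0.05. Hoxb4 has the largest differences, 5.31 and 6.68 against p75, and the widest intervals.

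Hoxb4 was low in p75 and high in most samples of both TRKA populations. It belongs to paralogue group 4, acts in the hindbrain and neck, and is known for the self-renewal of blood stem and progenitor cells. Its probe lies at chr10:85052841-85052900 on the plus strand (rn4, the build of the array design). In p75 the levels were -7.66, -8.29, -7.48 and -7.73, none of them detected. The CD90 samples read -4.13, -5.84, -7.53 and -8.34, of which the first pair was detected. In TRKA they were 0.24, 0.71, -3.22 and -7.66, with the last at background. The TRKA samples thus ran from above the 75th percentile to the level of p75. The TRKA-TGF samples read -0.55, -1.36, -1.58 and -0.95 and were all detected. Every TRKA-TGF sample lay above every p75 and CD90 sample, whereas TRKA overlapped both through replicate 4. As processed signals before scaling, the TRKA samples gave 1080, 1190, 72.5 and 4.09, and the TRKA-TGF samples 790, 370, 318 and 566.

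The mean Hoxb4 level was -1.11 ± 0.46 (SD, n = 4) in TRKA-TGF, -2.48 ± 3.87 (SD, n = 4) in TRKA, -6.46 ± 1.87 (SD, n = 4) in CD90 and -7.79 ± 0.35 (SD, n = 4) in p75. TRKA-TGF exceeded p75 by 6.68 (95% interval 3.55 to 9.81, SE 1.45, adjusted p = 0.00539). Because Hoxb4 was at background on all p75 arrays, this is stated as at least 31.1-fold, the mean of the brighter population over the lowest signal that counted as detected on the dimmer arrays. TRKA exceeded p75 by 5.31 (2.18 to 8.43, adjusted p = 0.0112). The same calculation gave 12-fold, which is not a lower bound here, because the TRKA mean includes replicate 4 at background. TRKA-TGF exceeded CD90 by 5.35 (2.22 to 8.48, adjusted p = 0.0225) and TRKA exceeded CD90 by 3.98 (0.85 to 7.10, adjusted p = 0.0475). The interval for TRKA-TGF minus TRKA, -1.75 to 4.5, covered 0 (difference 1.37, adjusted p = 0.53), as did that for CD90 minus p75, -1.80 to 4.46 (difference 1.33, adjusted p = 0.752). In order of mean level, neighbouring populations differed beyond the threshold only between TRKA and CD90.

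**Figure D3:**
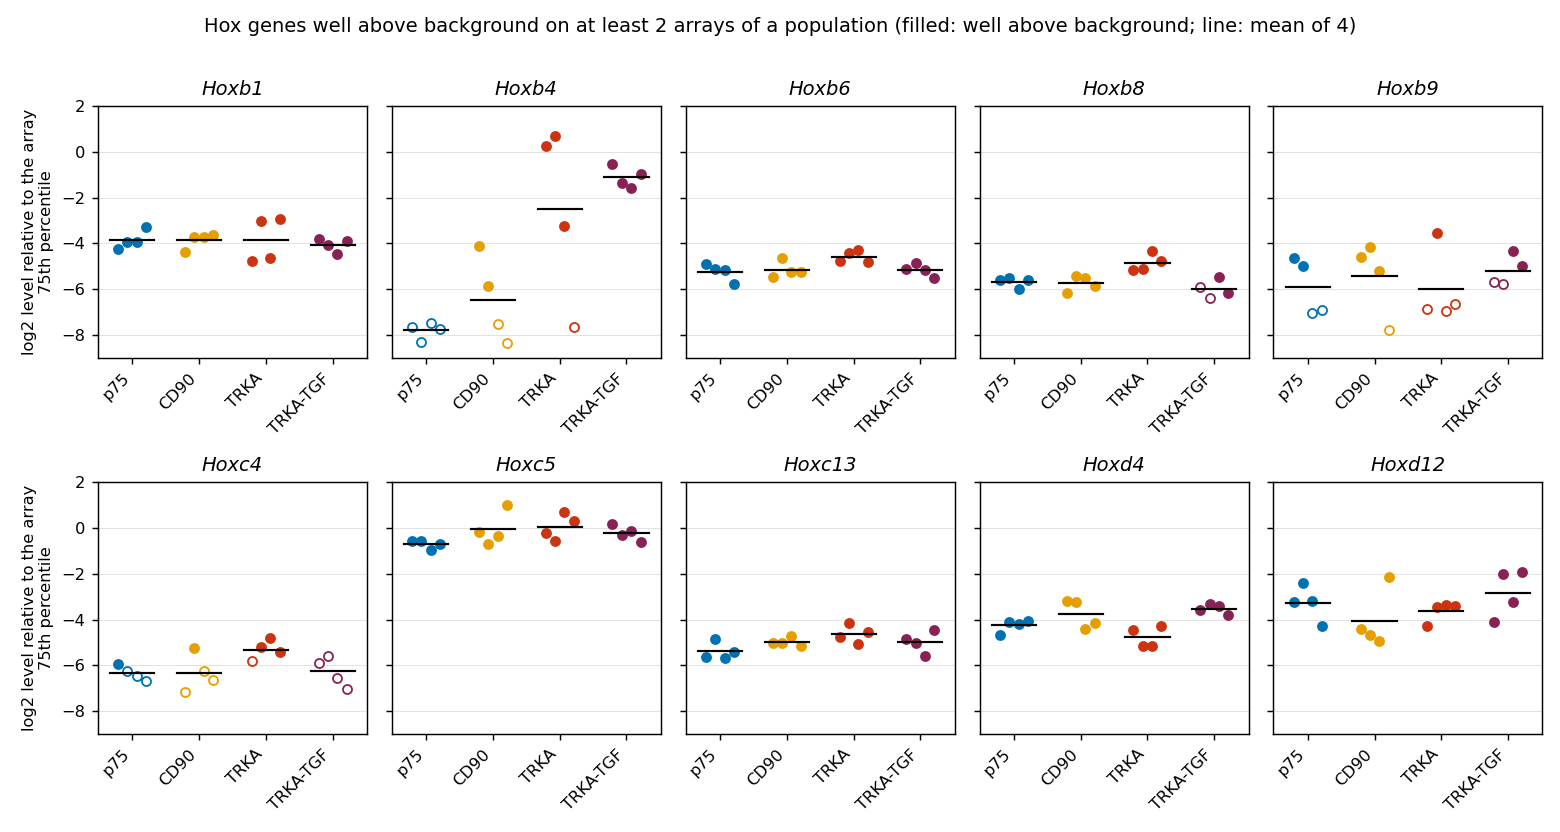
Level on each array (vertical axis, log2 above or below the array's 75th percentile) of the 10 Hox genes detected on at least 2 arrays of a population; filled points were well above background, open points were not, and the line is the mean of 4. The Hoxb4 points of TRKA-TGF lie between -1.58 and -0.55 and those of p75 at -7.48 or lower, while TRKA spans nearly the whole range.

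These calls differed in how they held when the fit was changed. TRKA-TGF versus p75 was called under all 28 alternatives (adjusted p at most 0.0175). TRKA versus p75 was called under 27, the exception being a fit of only the 8 arrays of that slide (difference 5.31, adjusted p = 0.0668). Without TRKA replicate 4 its difference was 7.04 (adjusted p = 0.00014). TRKA-TGF versus CD90, also within a slide, was called in the fit of its own 8 arrays (adjusted p = 0.00464) but not without CD90 replicate 3 (0.063), CD90 replicate 4 (0.0699), TRKA-TGF replicate 1 (0.0586) or TRKA-TGF replicate 4 (0.0541). TRKA versus CD90 was called under 11 of 28 alternatives, including 2 of the 16 that leave out 1 array, and its adjusted p ranged from 0.000659 to 0.187. Without TRKA replicate 4 the TRKA-TGF minus TRKA difference turned to -0.36, from 1.37 with it, and was called in neither case.

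Macrophage markers were higher in both TRKA populations than in p75 and CD90. In TRKA versus p75 and TRKA versus CD90 all 10 markers were higher in TRKA, and in TRKA-TGF 9 were higher than in p75 and 8 higher than in CD90. Between TRKA-TGF and TRKA, 3 markers were lower and none higher in TRKA-TGF (median difference -1.26). Hoxb4 had no established order between these populations (difference 1.37, adjusted p = 0.53 in limma). Its difference changed sign without TRKA replicate 4. TRKA replicate 4, in which Hoxb4 was at background, had the lowest summed marker level of the TRKA samples, 508, against 198 to 201 on the TRKA-TGF arrays, all of which detected Hoxb4. TRKA replicates 1, 2 and 3 had summed levels of 533, 673 and 614, with Hoxb4 at 0.24, 0.71 and -3.22. CD90 replicate 1, with the highest Hoxb4 level of that population, also had its highest summed marker level, 30.3. CD90 replicates 2 and 4 both had 16.5, with Hoxb4 at -5.84 and -8.34, and replicate 3 had 15.2, with Hoxb4 at -7.53. The part of these markers in the Hoxb4 differences was not tested. In sorted bulk samples, fewer cells of a type and less RNA per cell cannot be told apart.

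**Figure D4:**
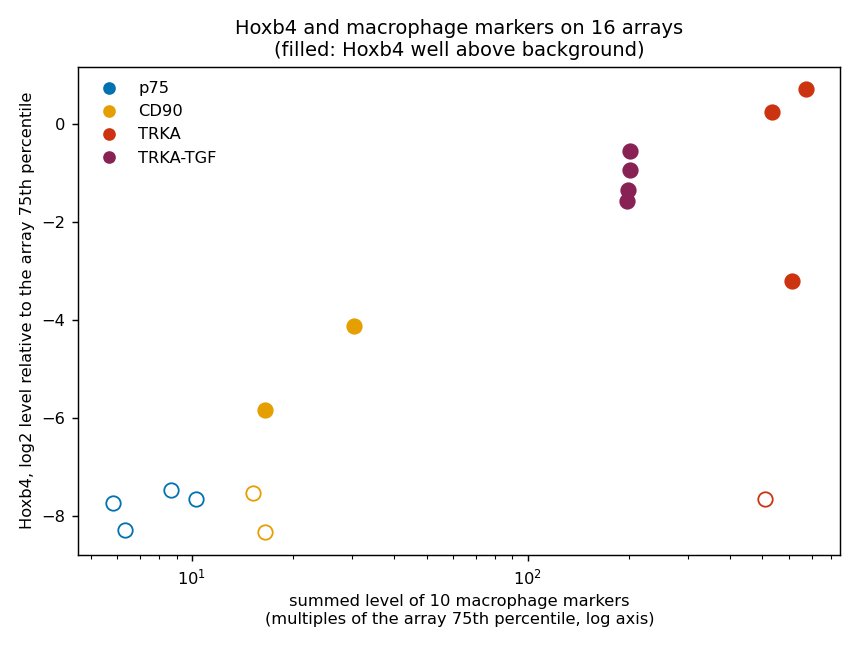
Hoxb4 level (vertical axis, log2 above or below the array's 75th percentile) against the summed level of 10 macrophage markers (horizontal log axis, multiples of the 75th percentile) on 16 arrays; filled points are arrays on which Hoxb4 was well above background. The open TRKA point at 508 has Hoxb4 at -7.66, while the 4 TRKA-TGF points lie between 198 and 201 with Hoxb4 at -1.58 or higher.

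The other members of paralogue group 4 behaved differently from Hoxb4. Hoxd4, which marks the posterior hindbrain and neck and responds to retinoic acid, was detected on all 16 arrays. It read -4.66, -4.09, -4.18 and -4.07 in p75, -3.19, -3.21, -4.39 and -4.15 in CD90, -4.44, -5.16, -5.14 and -4.27 in TRKA, and -3.60, -3.32, -3.42 and -3.81 in TRKA-TGF. All TRKA-TGF samples lay above all TRKA samples, while CD90 overlapped both TRKA and TRKA-TGF. The TRKA-TGF minus TRKA difference was 1.22 (0.51 to 1.93, adjusted p = 0.0144), and the TRKA minus CD90 difference was -1.02 (-1.73 to -0.31, adjusted p = 0.0276). Both directions depended on the scaling. After quantile normalisation the TRKA-TGF minus TRKA difference was -0.52 (adjusted p = 0.207) and the TRKA minus CD90 difference was 0.71 (adjusted p = 0.0753). TRKA minus p75, -0.51 and not called (adjusted p = 0.252), became 1.08 (adjusted p = 0.0115). With the percentile taken over probes detected on all arrays it was -1.40 and called in the opposite direction (adjusted p = 0.00712). The TRKA versus CD90 call was also lost in the fit of its 8 arrays (adjusted p = 0.127) and with a trend in the moderation (0.0727). It was lost as well without CD90 replicate 1 (-0.84), CD90 replicate 2 (-0.84), TRKA replicate 2 (-0.88) or TRKA replicate 3 (-0.89). As processed signals, Hoxd4 gave 20.3 to 43.4 in TRKA and 77.7 to 95.7 in TRKA-TGF, on arrays whose medians differed in the same direction.

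Hoxc4, which acts in the neck and in B lymphocytes, was detected on 5 arrays, 3 of them TRKA. Its levels were -5.95, -6.25, -6.44 and -6.69 in p75, -7.18, -5.23, -6.26 and -6.65 in CD90, -5.82, -5.19, -4.82 and -5.40 in TRKA, and -5.90, -5.57, -6.53 and -7.05 in TRKA-TGF. TRKA samples were the highest on average, overlapping CD90 and TRKA-TGF but not p75 on this scale. Before scaling, the signals were 17 to 23.8 in TRKA and 12.4 to 22.3 in p75, which overlap. The excess over p75 was 1.03 (0.11 to 1.94) with an adjusted p of 0.0761, and that over CD90 was 1.02 (0.11 to 1.94, adjusted p = 0.0786), so neither passed. TRKA-TGF, with no array detected, lay -0.96 from TRKA (adjusted p = 0.117), which did not pass either.

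Hoxc5, a gene of the lower neck and upper trunk, gave readings that depended on the probe. Its brighter probe was detected on all 16 arrays and its dimmer probe on 2. The brighter probe read -0.58, -0.58, -0.98 and -0.69 in p75, -0.16, -0.70, -0.35 and 1.02 in CD90, -0.23, -0.57, 0.69 and 0.31 in TRKA, and 0.18, -0.31, -0.12 and -0.59 in TRKA-TGF. The 4 populations overlapped, with p75 lowest and CD90 replicate 4 the single highest sample. No comparison was called for it, the largest difference being TRKA minus p75 at 0.76 (-0.04 to 1.56, adjusted p = 0.13). The dimmer probe was detected on p75 replicate 2 (-6.06) and TRKA replicate 3 (-4.26) and stayed out of the test. Which of them follows the Hoxc5 transcript was not tested.

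Hoxb6 and Hoxb8, further along the HoxB cluster, were dim in every population. Hoxb6, a gene of the trunk and early limb field, read -4.91, -5.12, -5.14 and -5.77 in p75, -5.46, -4.65, -5.27 and -5.27 in CD90, -4.79, -4.41, -4.30 and -4.80 in TRKA, and -5.10, -4.85, -5.15 and -5.49 in TRKA-TGF. On this scale the TRKA samples lay above the p75 and TRKA-TGF samples and overlapped those of CD90. Before scaling, the signals were 30.2 to 34.6 in TRKA, 23.7 to 51.3 in p75 and 24.2 to 33.9 in TRKA-TGF, which overlap. Under the 28 alternatives the TRKA minus p75 difference ran from -0.23 to 2.2. The excess of TRKA over p75 was 0.66 (0.08 to 1.23, adjusted p = 0.0715) and over CD90 0.58 (0.01 to 1.16, adjusted p = 0.109), neither of which passed.

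Hoxb8, known for its use in myeloid progenitors and in a lineage of microglia, was detected on all arrays but TRKA-TGF replicates 1 and 2. Its levels were -5.59, -5.53, -6.01 and -5.58 in p75, -6.15, -5.41, -5.51 and -5.87 in CD90, -5.16, -5.11, -4.34 and -4.77 in TRKA, and -5.92, -6.39, -5.47 and -6.17 in TRKA-TGF. All TRKA samples lay above all samples of the other populations. TRKA exceeded p75 by 0.83 (0.23 to 1.44, adjusted p = 0.0325) and CD90 by 0.89 (0.29 to 1.5, adjusted p = 0.0235). TRKA-TGF lay -1.14 from TRKA (-1.75 to -0.54, adjusted p = 0.00815). With the percentile taken over probes detected on all arrays, the differences against p75 and CD90 became -0.06 (adjusted p = 0.89) and -0.08 (adjusted p = 0.827). That against TRKA-TGF became -0.38 (adjusted p = 0.31). Before scaling, the signals were 21.7 to 33.2 in TRKA and 19.5 to 32.8 in p75, which overlap. The TRKA versus p75 call was lost in the fit of only its 8 arrays (adjusted p = 0.0878), with the difference unchanged at 0.83. It was also lost without p75 replicate 1, 3 or 4 or TRKA replicate 3 or 4 (differences between 0.67 and 0.87). With a trend in the moderation it was lost too (adjusted p = 0.0938). The TRKA versus CD90 call was lost in the fit of its 8 arrays (0.0904), with a trend (0.0749), and without CD90 replicate 1 (0.76), CD90 replicate 4 (0.85) or TRKA replicate 3 (0.73). The Hoxa6 probe, which holds the same 17 bases, was not called in any comparison.

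Hoxb1 was the only anterior gene detected on more than 1 array. It sets the identity of the hindbrain segment from which the facial nerve arises. It read -4.23, -3.96, -3.96 and -3.29 in p75, -4.39, -3.71, -3.74 and -3.63 in CD90, -4.79, -3.0, -4.63 and -2.93 in TRKA, and -3.80, -4.07, -4.48 and -3.90 in TRKA-TGF. The populations overlapped throughout, and TRKA held both the highest and the lowest samples. The 6 differences lay between -0.22 and 0.03, with 95% intervals from -1.14 to 0.95 and adjusted p of at least 0.741.

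The posterior genes detected on at least 2 arrays of a population were Hoxb9, Hoxd12 and Hoxc13, and none was called in any comparison. Hoxb9, which shapes the ribs, was detected on 2 p75 arrays, 3 CD90, 1 TRKA and 2 TRKA-TGF. It read -4.64, -5.00, -7.02 and -6.92 in p75, -4.60, -4.16, -5.22 and -7.77 in CD90, -6.85, -3.54, -6.93 and -6.66 in TRKA, and -5.70, -5.77, -4.32 and -5.00 in TRKA-TGF. The highest sample was TRKA replicate 2, while the other TRKA samples were among the lowest. The spread within a population (SD 0.68 to 1.64, n = 4) covered the differences, which lay between -0.56 and 0.80 (adjusted p at least 0.566).

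Hoxd12, a gene of the hand and foot plate, was detected on all arrays. It read -3.23, -2.39, -3.18 and -4.30 in p75, -4.40, -4.66, -4.95 and -2.13 in CD90, -4.30, -3.47, -3.37 and -3.42 in TRKA, and -4.11, -2.02, -3.21 and -1.92 in TRKA-TGF. CD90 replicate 4 and TRKA-TGF replicates 2 and 4 were the highest, and every pair of populations overlapped. The largest difference, TRKA-TGF minus CD90 at 1.22 (-0.18 to 2.62), had an adjusted p of 0.271, and without CD90 replicate 4 it was 1.86 (adjusted p = 0.0442). Its paralogue Hoxc12 was not detected on any array.

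Hoxc13, which acts in hair and nail, also was detected on all arrays. It read -5.62, -4.83, -5.66 and -5.43 in p75, -5.00, -5.01, -4.70 and -5.17 in CD90, -4.75, -4.14, -5.07 and -4.56 in TRKA, and -4.83, -5.01, -5.57 and -4.47 in TRKA-TGF. All 4 populations overlapped, p75 being lowest on average. TRKA minus p75, at 0.75 (0.11 to 1.39), did not pass (adjusted p = 0.0632), although it did without p75 replicate 2 (0.94, adjusted p = 0.0331) or without TRKA replicate 3 (0.90, adjusted p = 0.0372). Its paralogues Hoxa13 and Hoxd13 were detected on 1 array and on none, and Hoxb13 on none.

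Under quantile normalisation, normexp background correction and the authors' deposited table of values, Hoxb1, Hoxb6, Hoxc4 and Hoxc13 were also called, each higher in TRKA than in p75 and CD90 and lower in TRKA-TGF than in TRKA. Hoxd12 was called in TRKA versus CD90 under the same settings, at 2.0 (adjusted p = 0.0258), 1.03 (adjusted p = 0.0357) and, in the authors' deposited table, 2.0 (adjusted p = 0.0261). After quantile normalisation the TRKA minus p75 differences were 1.48 for Hoxb1, 2.20 for Hoxb6, 2.45 for Hoxc4 and 2.26 for Hoxc13. For Hoxb1, whose difference on the main scale was 0.02, and for the other dim genes, the size of a TRKA difference thus depended on the scaling. Hoxb4 differed in the same direction from p75 under each of these settings and was called in all of them.

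**Figure D5:**
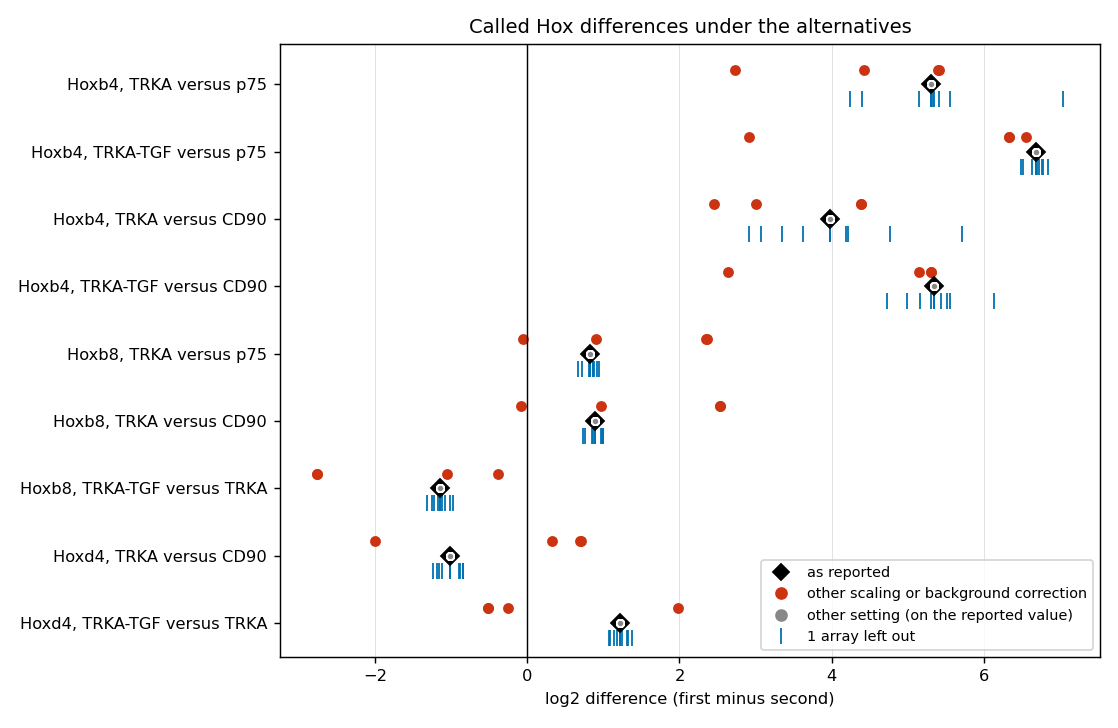
Differences called for Hoxb4, Hoxb8 and Hoxd4 (horizontal axis, log2, first population minus second) as reported and under the 28 alternatives; red points are other scalings or background corrections, blue ticks leave out 1 array. The Hoxb4 differences stay at 2.46 or above, whereas points of Hoxd4, and of Hoxb8 against p75 and CD90, lie on both sides of 0.

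Genes that work with or on the Hox genes were read from lists drawn up for this purpose. Of 8 tested TALE proteins, homeodomain partners that bind DNA together with Hox proteins, 1 was higher and 2 lower in TRKA than in p75, and 2 higher and 2 lower than in CD90. The shares called among all genes in these comparisons were 35.7% and 34.9%, so the first count, 3 of 8, was near the background. In CD90 versus p75 only Pknox2 was called, lower in CD90, against 7.25% of all genes. Pbx3, a partner of many Hox proteins, was detected on all 4 CD90 arrays and on 1 TRKA array, the fitted difference of TRKA minus CD90 being -6.81 (adjusted p = 0.00248). Where a list gene was detected on only some arrays of a population, its fitted difference rests on background readings in the others, and its size is approximate. Meis1, which supports Hox action in blood progenitors, lay -5.47 from CD90 in TRKA-TGF (adjusted p = 0.0246), where its tested probe was detected on 1 array and any of its probes on 3. Pknox1 was 4.49 higher in TRKA-TGF than in TRKA (adjusted p = 0.0145), where 1 array detected it. The median difference of the 8 was 0.01 in TRKA versus p75 (all genes -0.01).

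Among 10 tested upstream regulators of the clusters, 3 were higher and 2 lower in TRKA versus p75 and in TRKA versus CD90. In these comparisons 35.7% and 34.9% of all genes were called. None was called in CD90 versus p75, against 7.25% of all genes. The median differences of this list were 0.40 and 0.46 in the first pair of comparisons. Egr2, a hindbrain segment gene that also acts in myeloid and Schwann cells, was 4.98 higher in TRKA than in p75 (adjusted p = 0.00283). Gdf11, a trunk-to-tail patterning signal, lay -5.68 from p75 in TRKA (adjusted p = 0.000683) and was detected on 2 TRKA arrays. Rarg, a retinoic acid receptor, lay -2.19 from CD90 in TRKA-TGF (adjusted p = 0.00104).

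Of 15 tested Polycomb and Trithorax genes, which keep the clusters silent or active, none was called in CD90 versus p75, against 7.25% of all genes. In TRKA-TGF 1 was called against p75 and 1 against CD90, where 15.1% and 14.9% of all genes were called. TRKA versus CD90 called 2 higher and 4 lower, against 34.9% of all genes. TRKA versus p75 called 1 higher and 4 lower (median -1.36), and TRKA-TGF versus TRKA 5 higher and 1 lower (median 1.99). These are 5 and 6 of 15, against 35.7% and 26.4% of all genes, so the first count was near the background. Rnf2, the catalytic subunit of Polycomb complex PRC1, and Phc1, of the same complex, were each detected on all 4 p75 arrays and on 1 TRKA array, and Ezh2, the histone H3 methyltransferase, on 4 and 2. The fitted differences of TRKA from p75, on the same approximate footing, were -7.59 for Rnf2 (adjusted p = 1.84e-08), -6.63 for Phc1 (adjusted p = 0.00136) and -5.49 for Ezh2 (adjusted p = 0.00237). Bmi1, another PRC1 subunit, was 4.77 higher in TRKA-TGF than in TRKA (adjusted p = 0.0384), where 1 array detected it. The TRKA samples differed among themselves, with Ezh2 at -0.42 in replicate 1 and at -4.90, -7.44 and -7.99 in the others. Detection of all genes was also lowest on the TRKA arrays, 54.6 to 60.9%, and its part in these differences was not tested.

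Anterior and craniofacial homeobox genes, which lie outside the clusters, were called most often between CD90 and the TRKA populations. Of 15 tested, 6 were higher and 2 lower in CD90 than in p75, against 7.25% of all genes called. In TRKA versus CD90, 1 was higher and 9 lower in TRKA (median -4.98), against 34.9% of all genes. TRKA-TGF versus CD90 gave the same counts, 1 and 9 (median -4.32), against 14.9%. Prrx2, a gene of facial mesenchyme, was at least 45.5-fold higher in CD90 than in p75 (adjusted p = 3.4e-06). Prrx1 lay -8.56 from CD90 in TRKA (adjusted p = 0.00366), where its tested probe was detected on 2 arrays and any of its probes on 3. Hoxb4, by contrast, was not called between CD90 and p75.

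Genes that flank the clusters did not follow one direction. Of 13 tested, 2 were higher and 4 lower in TRKA than in p75, and 4 were higher and 2 lower in TRKA-TGF than in TRKA, where 35.7% and 26.4% of all genes were called. Snx11, beside HoxB, lay at background on all 4 TRKA arrays and was at least 17.8-fold higher in TRKA-TGF (adjusted p = 0.0111), while Hoxb4 was detected on 3 of the same TRKA arrays. Snx10, on the HoxA side, was at least 116-fold higher in TRKA-TGF than in TRKA (adjusted p = 4.29e-05). Lnpk, next to HoxD, was 5.6 higher in the same comparison (adjusted p = 6.89e-06), with 1 TRKA array detected. Skap2, next to HoxA, was 4.37 higher in TRKA-TGF than in CD90 (adjusted p = 2.36e-05). The HoxA genes themselves were at background in nearly all samples.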

How the data were processed

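The scanner files hold Agilent Feature Extraction output, and the deposited gProcessedSignal values are intensity, background-subtracted per the file headers, from RNA amplified by PCR per the labels' protocols. The submitters' processing notes name Feature Extraction 10.5 and the headers 10.7.3.1. The authors' value table is on a log2 scale: over 30367 probes it matched quantile-normalised, centred log2 signals, and it served as an alternative.

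Control spots and spots with outlier flags were left out, spots of a probe were averaged on the log2 scale, and each array's 75th percentile over probes was subtracted. Probes detected on at least 4 arrays were kept and the brightest kept probe stood for a gene. Names came from RefSeq (GRCr8) by accession (18331 probes), symbol (2751) or unique synonym (422), and otherwise from the scanner file. limma 3.58.1 in R 4.3.3 fitted 1 mean per population, with Benjamini-Hochberg adjustment. The code was tested on simulated data. The number of arrays limits precision. A bound uses, per array of the dimmer population, the higher of the probe's own signal and the lowest signal of a probe well above background. It is a lower limit only where the brighter population was detected on all its arrays. Genes detected on at least 2 arrays of a population were described with all values, and other lists by counts and the called genes with the largest differences; some genes and sequences that this would include are not reported here. The members, lists and tests were chosen with earlier results of these data known, and the probe pairs shown were chosen after their values were seen. Tools were Python 3.11.15, pandas 2.3.3 and matplotlib 3.10.9.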

Additional observations from a re-analysis of the deposited data

Results flagged for a closer look

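In 40 sets of 4 samples, 1 for each described gene in each population, the gap between the highest or lowest sample and its nearest neighbour was compared with the whole range of the set. It exceeded Dixon's 95% critical ratio in 4 sets, and chance alone gives about 1 set in 20. Hoxb9 in TRKA had 1 sample far above the others, replicate 2 at -3.54, with a ratio of 0.92. Hoxd12 in TRKA had 1 sample far below, replicate 1 at -4.30, with a ratio of 0.896. Hoxb8 in p75 had replicate 3 far below the others at -6.01, with a ratio of 0.866. Hoxb1 in CD90 had replicate 1 far below at -4.39, with a ratio of 0.858. None of these genes other than Hoxb8 was called in any comparison.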

How the results depend on the processing

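Each comparison was refitted under 28 alternatives, 16 of which leave out 1 array. The counts of Hox genes called changed by over 1.5 times under the settings given here. After quantile normalisation, normexp correction or with the authors' values they were 7 in TRKA versus p75, 7 in TRKA versus CD90 and 5 in TRKA-TGF versus TRKA. Of the 20571 genes, these settings called 8527 to 8603, 8530 to 8541 and 6471 to 6503 in turn. With the percentile over probes detected on all arrays the Hox counts were 1 in TRKA versus CD90 and 1 in TRKA-TGF versus TRKA. That setting called 8190 and 6258 of all genes there. Without the detection filter the Hox counts were 9 in TRKA versus p75 and 11 in TRKA versus CD90, of which 7 and 9 were genes detected on no array. With only the 8 arrays compared they were 0 in both, and with a trend in the moderation 1 in both. Leaving out 1 array gave 1 to 3 in TRKA versus p75, 0 to 3 in TRKA versus CD90 and 0 to 1 in TRKA-TGF versus CD90. The counts in CD90 versus p75 and TRKA-TGF versus p75 stayed at 0 and 1 whenever 1 array was left out. The cause was not tested.

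Reversed directions were those of Hoxb8 with the percentile over probes detected on all arrays, -0.06 in TRKA versus p75 and -0.08 in TRKA versus CD90, and of Hoxd4. With quantile normalisation, normexp correction and the authors' values in turn, Hoxd4 gave 1.08, 0.52 and 1.07 in TRKA versus p75, 0.71, 0.32 and 0.70 in TRKA versus CD90, and -0.52, -0.25 and -0.52 in TRKA-TGF versus TRKA. Among 1530 differences called neither way, 111 changed sign.

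The shared replicate numbers did not pair the samples: deviations of same-numbered samples correlated between -0.0343 and 0.0427 in 24 pairs. A replicate block left the counts at 0, 2, 1, 3, 1 and 2 in the order of the report, and the called genes were the same ones. Signal over background limits the rest: many Hox probes were at background, where only a bound is measured.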

Other observations

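Probes for Hox transcripts whose scanner name falls outside the pattern were read separately. The probe named Hoxa9l, which RefSeq names Hoxa9, was detected on 1 of 16 arrays, TRKA replicate 4, at -1.27, while the other TRKA samples read -7.73, -7.49 and -7.37. TRKA replicate 4 was also the TRKA sample in which Hoxb4 was at background. The antisense transcript Hoxa11-as, named RGD1564419 in the scanner file, was detected on 1 array of p75, 1 of CD90, 2 of TRKA and none of TRKA-TGF, with levels between -7.38 and -4.88.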
